A study of Mus musculus with 2 samples.

Results

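Penk and 9 other neuropeptide precursor genes were examined in 2 rhabdoid tumors (RT) of mice, 1 library per tumor. The group comprised Penk, Calca, Calcb, Tac1, Npy, Nts, Sst, Gal, Vip and Adcyap1, which are 10 of the 55416 genes in the count table, and all 10 were found by their symbol. The genes were chosen by name with their counts in these same 2 libraries known. The difference between the libraries was part of that choice, so it is described here and carries no test.

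Neuropeptides are made as longer precursor proteins. In the secretory pathway these are cut at pairs of basic residues by prohormone convertases, trimmed by carboxypeptidase E and in many cases amidated, and the released peptides act on G protein-coupled receptors of nearby cells. Sensory, autonomic and central neurons and neuroendocrine cells are the best known sources. Some precursors are also made elsewhere, such as Penk in mesenchymal and lymphoid cells and Calca in the C cells of the thyroid.

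RT are aggressive childhood cancers in which Smarcb1, a SWI/SNF chromatin remodeling gene, is usually inactivated. Both tumors had formed in Dppa3-cre::Smarcb1 mice on a C57BL/6 background, in which Cre was expressed from the Dppa3 locus, active in primordial germ cells, and 1 Smarcb1 allele was floxed. One library was labelled intracranial (trigeminal nerve) and the other extracranial (facial, maxillar), and both tumors were classified as MYC. Ages were not given in the sources used here, tissue without a tumor was not analysed here, and each location was 1 tumor, so location, animal and library cannot be told apart.

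The library labelled intracranial held 34545846 counts and the library labelled extracranial 26915696. The targeted gene, Smarcb1, had 365 and 530 counts, in this order, which is 10.5 and 19.8 CPM (counts per Mio counts of the TMM-scaled library). The study marked extracranial RT by a set of genes from single tumor cells of the MYC subtypes, whereas bulk tissue is read here. The 5 of them checked were Tnn, C1qtnf3, Prelp, Tlx2 and Postn. All had more CPM in the library labelled intracranial, with log2 ratios from -4.92 to -0.89, so the libraries are called by their labels throughout. Markers of intracranial RT from the study were not checked here. Keratinocyte markers summed to 21440 CPM in the library labelled intracranial and to 0.598 CPM in the other. Schwann cell markers, which a nerve should hold, were above the floor for 10 of 10 genes and for 9 of 10. Beyond counting error, 8 of them were higher in the library labelled intracranial, among them Sox10 with 43 and 0 counts. The other 2 were higher in the library labelled extracranial, Egr2 with 630 and 2396 counts and Mag with 86 and 282.

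Values below are given first for the library labelled intracranial and then for the library labelled extracranial. The ratio is extracranial over intracranial, so a positive log2 ratio is a higher level in the library labelled extracranial. Intervals are exact 95% intervals of counting error alone, since the reads carried no molecular identifiers, need not be independent and had no replicates. A count of 3 or fewer was treated as background, a floor of 0.0863 and 0.112 CPM. A gene was called different where the whole interval of its ratio lay beyond 4-fold. In bulk tissue, a different number of cells of one type and a different amount of RNA per cell cannot be told apart.

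Penk (ENSMUSG00000045573, chromosome 4), the precursor of the enkephalins, was the most abundant neuropeptide gene of the library labelled extracranial. It had 309 counts in the library labelled intracranial, or 8.89 CPM (7.93 to 9.94), and 12594 counts in the other, or 470.6 CPM (462.5 to 478.9). The log2 ratio was 5.73 (5.56 to 5.89), a 52.9-fold difference. Per kilobase of exon, the scale on which different genes can be compared, Penk stood at 5.44 and 288 CPM. By this level it ranked 7863 and 401 of 24295 genes above the floor in either library.

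What a Penk read stands for can be read from its transcript. Enkephalins open with the residues tyrosine, glycine, glycine and phenylalanine, and end in methionine or leucine. In the 807 coding bases, stop codon included, of the longest annotated coding transcript (GENCODE release 21 of the mouse, build GRCm38, chromosome 4, minus strand), the codons of the first 4 residues were searched on the coding strand. They were found 7 times, every time in the reading frame, and the codon that follows was that of methionine in 6 copies and that of leucine in 1. The stretch from base 553 to base 804 of the coding sequence is shown because it holds 4 of the copies, the leucine form among them, with each copy and its last codon in capitals.

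Penk: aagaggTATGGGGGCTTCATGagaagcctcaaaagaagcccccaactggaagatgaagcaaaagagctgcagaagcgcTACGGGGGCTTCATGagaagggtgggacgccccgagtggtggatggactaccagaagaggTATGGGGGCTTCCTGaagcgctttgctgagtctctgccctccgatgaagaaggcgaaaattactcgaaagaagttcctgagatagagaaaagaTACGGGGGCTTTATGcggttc

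Before each of the 7 copies stands a pair of codons for basic residues, the kind of site at which convertases cut, in lower case directly before the capitals. The counts measure this precursor transcript, not the peptides.

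Penk shares bases with a neighbor on the other strand. The annotated RNA A830012C17Rik overlaps 233 bases of Penk exons in antisense, and 92 of the 1559 stretches of 72 bases in Penk transcripts also occur in its transcripts. This gene had 0 and 18 counts. In the same annotation, exons of the other 9 neuropeptide genes overlapped those of no other gene and shared 0 such stretches with transcripts of any other gene, Calca and Calcb included.

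The genes whose pair of levels was most like that of Penk were sought by the Euclidean distance of log2(CPM + 1) over the 2 libraries. The nearest 5 were the predicted gene Gm10800 (517 and 11221 counts, distance 0.703), the immunoglobulin heavy chain gene Ighm (458 and 8069, 0.825), Sema7a, a membrane-anchored semaphorin (566 and 6427, 1.26), Lum, a small proteoglycan of collagen matrix (853 and 15309, 1.4), and Cp, the copper-binding ceruloplasmin (460 and 4174, 1.67). No more than 2 genes lay within a distance of 1. With 2 libraries this likeness says only that the levels were close.

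Calca (ENSMUSG00000030669, chromosome 7) took the place of Penk in the library labelled intracranial. The gene yields calcitonin or, by alternative splicing, the vasodilator calcitonin gene-related peptide (CGRP), and counts per gene do not separate these transcripts. Calca had 2484 counts, or 71.5 CPM (68.7 to 74.4), against 39 counts, or 1.46 CPM (1.04 to 1.99). The log2 ratio was -5.62 (-6.11 to -5.16), so the level was 49.1-fold higher on the intracranial side. The 5 genes nearest to its pair of levels were Pkp3, Oxtr, Chit1, Anxa8 and Sbsn, at distances from 0.212 to 0.361, and 29 genes lay within a distance of 1. Pkp3, a desmosome protein, had 2665 and 31 counts, and Oxtr, the oxytocin receptor, had 1985 and 41.

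Calcb (ENSMUSG00000030666, chromosome 7), which encodes the beta form of CGRP, was lower than Calca in both libraries and differed in the same direction. It had 84 counts, or 2.42 CPM (1.93 to 2.99), and 5 counts, or 0.187 CPM (0.0607 to 0.436). The log2 ratio was -3.69 (-5.35 to -2.41), a level 12.9-fold higher on the intracranial side. Per kilobase of exon, Calca stood at 42.5 and 0.865 CPM and Calcb at 1.91 and 0.148 CPM.

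Vip (ENSMUSG00000019772, chromosome 10) encodes vasoactive intestinal peptide, a transmitter of parasympathetic nerves to glands and vessels. It had 401 counts, or 11.5 CPM (10.4 to 12.7), in the library labelled intracranial, and 3 counts, which is at the floor, in the library labelled extracranial. Its log2 ratio of -6.69 (-8.97 to -5.13) was the one farthest from 0 among the 10 genes, but it rests on those 3 counts. Adcyap1 (ENSMUSG00000024256, chromosome 17), the precursor of the related peptide PACAP, went the other way. It had 85 counts, or 2.45 CPM (1.95 to 3.02), and 162 counts, or 6.05 CPM (5.16 to 7.06), with a log2 ratio of 1.31 (0.92 to 1.70) that stayed below the 4-fold limit.

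Gal (ENSMUSG00000024907, chromosome 19), the precursor of galanin, was next to Penk in the library labelled extracranial. Its 2 values were 86 counts, or 2.48 CPM (1.98 to 3.06), and 441 counts, or 16.5 CPM (15 to 18.1). The log2 ratio was 2.74 (2.40 to 3.09), a 6.66-fold difference.

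Npy (ENSMUSG00000029819, chromosome 6) encodes neuropeptide Y, which sympathetic neurons release beside noradrenaline. It had 297 and 144 counts, or 8.55 CPM (7.6 to 9.58) and 5.38 CPM (4.54 to 6.34), and was 1.59-fold higher on the intracranial side (-0.67, -0.96 to -0.38). Of the 10 genes it was the one well above the floor in both libraries with the smallest difference outside counting error. Nts (ENSMUSG00000019890, chromosome 10), the precursor of neurotensin, had 40 counts in each library. The interval of its log2 ratio of 0.38 ran from -0.29 to 1.05, so the difference was within counting error.

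Tac1 (ENSMUSG00000061762, chromosome 6) encodes substance P and neurokinin A, which sensory neurons store together with CGRP. It had 13 counts, or 0.374 CPM (0.199 to 0.64), and 1 count. The log2 ratio of -3.32 (-8.73 to -0.59) rests on that 1 count, and with the count set to the floor of 3 it was -1.74. Sst (ENSMUSG00000004366, chromosome 16), the precursor of somatostatin, had 0 counts in both libraries, where the floor was 0.0863 and 0.112 CPM. No ratio was formed for Sst.

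**Figure D1:**
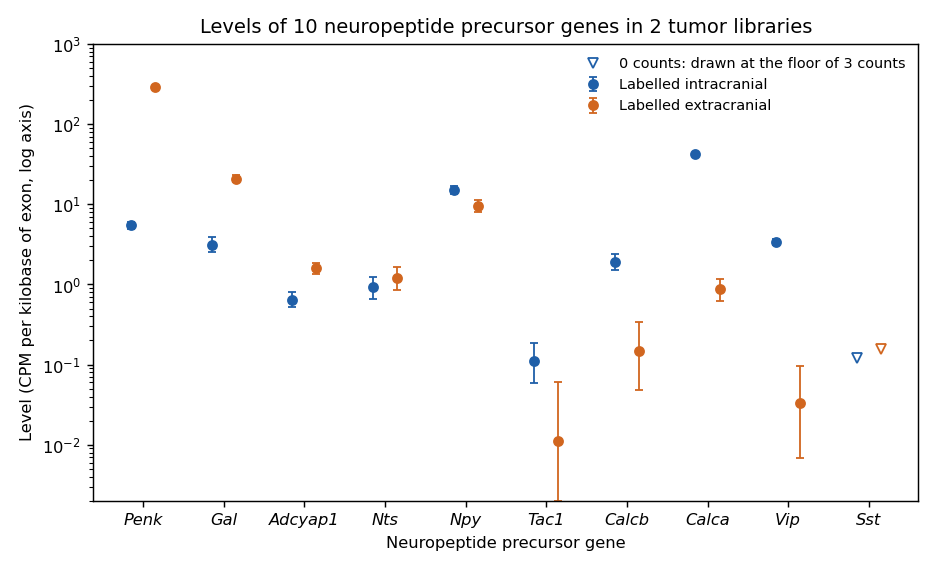
Levels of the 10 neuropeptide precursor genes in CPM per kilobase of exon on a log axis, 1 point per library (blue for the library labelled intracranial, orange for the library labelled extracranial) with exact 95% counting intervals, and open triangles at the floor of 3 counts where the count was 0. Penk stands at 288 CPM per kilobase in the library labelled extracranial and Calca at 42.5 in the library labelled intracranial, while Sst is at 0 in both.

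Ordered by CPM per kilobase within the library labelled intracranial, Calca (42.5) was followed by Npy (15.1), Penk (5.44), Vip (3.39), Gal (3.14), Calcb (1.91), Nts (0.922), Adcyap1 (0.648), Tac1 (0.11) and Sst (0). The intervals of neighbors overlapped for Vip and Gal, for Nts and Adcyap1, and for Tac1 and the upper limit of Sst. Calca held 58.1% and Npy 20.7% of the summed level of the 10 genes, 73.1 CPM per kilobase.

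In the library labelled extracranial the order was Penk (288), Gal (20.9), Npy (9.51), Adcyap1 (1.6), Nts (1.2), Calca (0.865), Calcb (0.148), Vip (0.033), Tac1 (0.011) and Sst (0). From Adcyap1 to Nts, from Nts to Calca and for each step from Calcb down, the intervals overlapped. Penk alone held 89.4% of the summed level of 322.3 CPM per kilobase, and Gal held 6.49%. Npy was among the first 3 genes in both libraries.

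Of the 10 genes, 9 had 10 or more counts over both libraries, and 5 of these were called beyond 4-fold, 2 higher in the library labelled extracranial (Penk and Gal) and 3 higher in the library labelled intracranial (Calca, Calcb and Vip). Among all 21977 genes with as many counts, 7.19% were called, 1.78% toward the extracranial and 5.41% toward the intracranial side. Because the genes were listed with this difference known, nothing is read from the comparison of these shares. The median log2 ratio of the 9 genes was -0.67, against -0.04 for all genes.

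**Figure D2:**
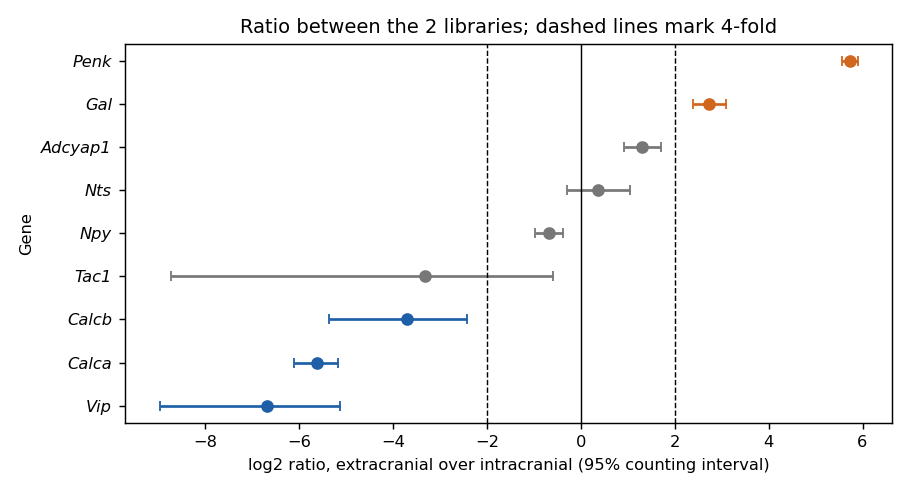
log2 ratio of the library labelled extracranial over the library labelled intracranial for the 9 genes with 10 or more counts, with exact 95% counting intervals; dashed lines mark 4-fold, orange and blue points have intervals wholly beyond it. Penk (5.73) and Gal (2.74) lie on the extracranial side, Vip (-6.69), Calca (-5.62) and Calcb (-3.69) on the intracranial side, and the interval of Nts spans 0.

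Transcription of several neuropeptide genes is known to respond to cyclic AMP through the cyclic AMP response element (CRE), to which CREB binds, and Sst is a textbook case. Promoter windows, the 250 bases before the start of transcription, were found for 8 of the 10 genes in the RefSeq promoter table (build GRCm38.p6). For Penk and Calcb there was no entry, and Adcyap1 had 2 windows that overlap. The palindrome TGACGTCA, its core TGACG, the AP-1 motif TGANTCA and the TATA motif TATAAA were searched on both strands, and the core lies within the palindrome. The promoters of Calca and Vip, the genes farthest apart between the libraries among those 8, and of Sst, at 0 in both, are shown with these motifs in capitals.

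Calca, chr7:114636358-114636607, minus strand: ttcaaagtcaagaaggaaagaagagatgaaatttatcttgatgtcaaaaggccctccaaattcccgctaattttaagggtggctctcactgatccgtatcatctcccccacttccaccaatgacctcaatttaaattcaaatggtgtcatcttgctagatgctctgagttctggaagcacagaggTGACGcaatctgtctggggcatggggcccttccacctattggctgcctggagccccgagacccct
Vip, chr10:5638968-5639217, plus strand: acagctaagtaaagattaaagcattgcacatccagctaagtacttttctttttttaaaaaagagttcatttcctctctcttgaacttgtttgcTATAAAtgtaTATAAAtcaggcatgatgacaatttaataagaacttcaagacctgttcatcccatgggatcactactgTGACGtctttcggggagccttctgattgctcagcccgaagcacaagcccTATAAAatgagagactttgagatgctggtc
Sst, chr16:23890845-23891094, minus strand: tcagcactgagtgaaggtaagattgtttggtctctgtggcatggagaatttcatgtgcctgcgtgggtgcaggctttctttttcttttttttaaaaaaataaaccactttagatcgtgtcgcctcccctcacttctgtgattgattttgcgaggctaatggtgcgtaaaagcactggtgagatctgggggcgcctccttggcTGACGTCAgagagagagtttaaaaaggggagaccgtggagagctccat

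The full palindrome was found only in the window of Sst among the 8 genes, from 48 to 41 bases before the start, and in 1.55% of all 32851 windows. The core TGACG was in windows of 6 of the 8 genes, against 17.8% of all windows. In Calca it lay from 65 to 61 bases and in Vip from 79 to 75 bases before the start. Tac1, Nts and Adcyap1 also held the core, whereas Npy and Gal did not. The TATA motif was found in windows of 2 of the 8 genes, Vip and Adcyap1 (12.4% of all windows), and the AP-1 motif in that of Nts (6.75%). Of the genes with the core, Calca, Vip and Tac1 had ratios below 0 and Adcyap1 had a ratio above 0. The interval of Nts spanned 0, and Sst, with the full palindrome, had no reads. The part of these motifs in the levels was not tested. A match describes the letters only.

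The genes of the CRE and AP-1 binding factors themselves were read in both tumors. Of 15 genes, 15 were above the floor in both and 0 were called beyond 4-fold, against 7.19% of all genes, and the median log2 ratio was 0.07. Fos, an immediate early gene, had 997 and 2035 counts (1.41, 1.30 to 1.52), and its relative Fosb had 314 and 571 (1.24, 1.04 to 1.44). Jun and Junb, their partners, had 234.7 and 275.6 CPM and 133.2 and 225.8 CPM. Creb1, which encodes CREB, had 1075 and 1043 counts (0.33, 0.21 to 0.46).

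Receptors were low for most of the peptides. Of 29 genes for receptors and their binding partners, 16 and 17 were above the floor, in the order of the libraries, and 11 were at or under the floor in both. Of the 16 with 10 or more counts, 0 were called beyond 4-fold (7.19% of all genes), and the median log2 ratio was -0.57. Crcp and Sorl1, which have functions beyond peptide reception, had 25.9 and 23.7 CPM and 36.7 and 43.9 CPM.

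Receptor parts for CGRP were read in both tumors. The CGRP receptor pairs the product of Calcrl with that of Ramp1. Calcrl had 333 and 325 counts, or 9.58 and 12.1 CPM (log2 ratio 0.34, 0.12 to 0.57). Ramp1 had 241 and 642 counts, or 6.94 and 24 CPM (1.79, 1.57 to 2.01), and so was lower in the library in which Calca was high. Ramp2, which turns Calcrl into a receptor for adrenomedullin, had 530 and 1348 counts (1.72, 1.58 to 1.87). Ramp3 had 138 and 37 counts (-1.52, -2.09 to -0.99). Endothelial cells express Calcrl and Ramp2, and the 6 endothelial markers, of which 6 were above the floor in each library, summed to 98 and 218.1 CPM. Their part in these values was not tested.

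For the other peptides, Tacr1, a receptor for substance P, had 2.99 and 2.09 CPM, and Vipr1, for VIP and PACAP, had 160 and 80 counts. Adcyap1r1, selective for PACAP, had 28 and 12. Galr2, a galanin receptor, had 43 and 8 counts (-2.05, -3.35 to -0.94), whereas Galr1 was at 0 in both libraries. Of the neuropeptide Y receptors, Npy1r had 21 and 9 counts and Npy2r and Npy5r were at 0. Neurotensin receptors Ntsr1 and Ntsr2 had 0 and 4 counts and 0 and 1 counts, while the sorting receptor Sort1, which also binds neurotensin, had 348 and 307. Sstr2 and Sstr3, receptors for somatostatin, had 21 and 10 counts and 19 and 8.

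**Figure D3:**
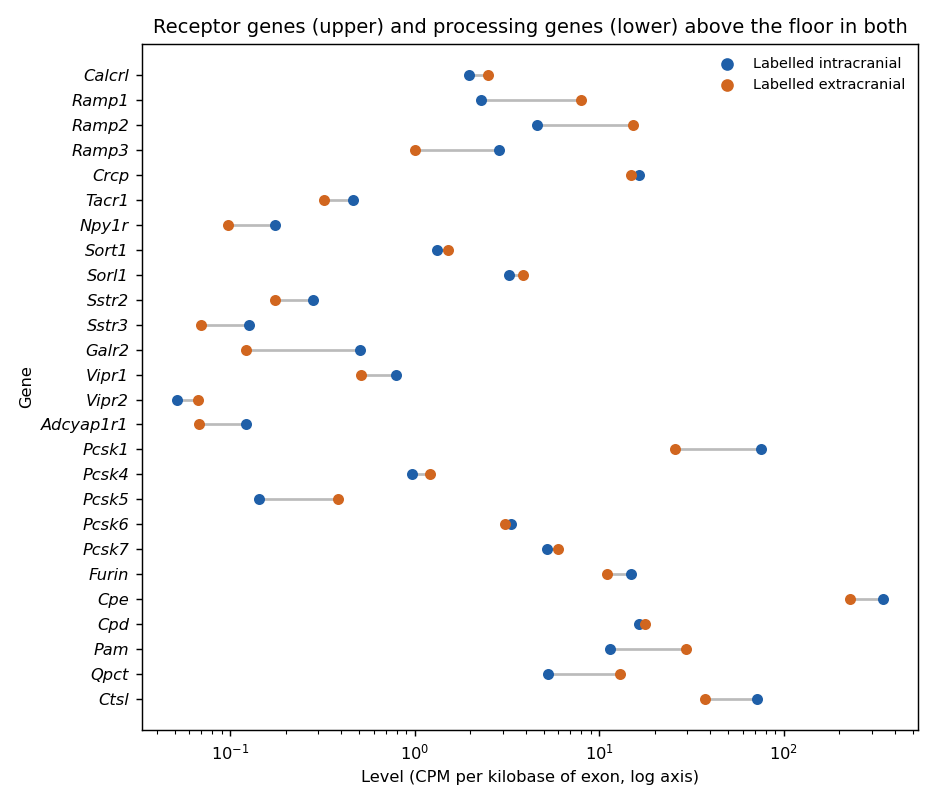
Levels in CPM per kilobase of exon on a log axis for genes of receptors and binding partners (Calcrl to Adcyap1r1) and of prohormone processing (Pcsk1 to Ctsl) with more than 3 counts in both libraries, 1 point per library joined by a line. Processing genes such as Cpe (346.5 and 230.4) and Pcsk1 (75.3 and 25.7) stand above every receptor gene shown.

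The delta and mu opioid receptor genes were near or at the floor in both libraries. Oprd1, which encodes the delta receptor preferred by enkephalins, was at 0 in both libraries, and Oprm1, the mu receptor gene, had 1 and 4 counts. Oprk1, for the kappa receptor, had 51 and 38 counts (-0.05, -0.69 to 0.59). Oprl1, for the nociceptin receptor, had 7 and 2 counts. Ackr3, an atypical receptor that takes up chemokines and opioid peptides, had 7894 and 1341 counts, or 227.2 and 50.1 CPM, and was called, 4.53-fold higher on the intracranial side (-2.18, -2.27 to -2.10).

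The other opioid precursors were low. Pdyn, the precursor of dynorphins, had 43 and 11 counts (-1.59, -2.69 to -0.61). Pomc, which yields endorphin and corticotropin, had 35 and 6 counts (-2.17, -3.71 to -0.90), and Pnoc, the nociceptin precursor, had 5 and 0. Per kilobase, Penk at 288 CPM in the library labelled extracranial stood beside 0.142 for Pdyn and 0.17 for Pomc. Of the 8 genes of the opioid list, 4 had 10 or more counts, 1 was called (7.19% of all genes), and the median log2 ratio was -1.88.

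Of the enzymes that cut and finish peptide precursors, Cpe, Pcsk1, Ctsl, Pam, Cpd and Furin had at least 101.2 CPM in each library. In the whole list 0 of 14 tested genes were called beyond 4-fold, against 7.19% of all genes, and the median log2 ratio was -0.01. Pcsk1, which encodes prohormone convertase 1/3, had 14659 and 3859 counts, or 421.9 and 144.2 CPM. It was 2.93-fold higher on the intracranial side (-1.55, -1.60 to -1.50), where Penk was low. Pcsk2, for the other convertase of neuroendocrine granules, had 3 and 7 counts, and Scg5, the chaperone of that convertase, had 16 and 0. Pcsk1n, an inhibitor of the first convertase, had 29 and 3 counts.

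Cpe, carboxypeptidase E, the highest of the list per kilobase in both libraries, had 31408 and 16088 counts, or 903.9 and 601.2 CPM (-0.59, -0.62 to -0.56). Its level per kilobase lay at percentile 98.6 and 98 of all genes. Ctsl, a cathepsin that also processes enkephalin precursor, had 465.9 and 243.7 CPM. Pam, the enzyme that amidates CGRP, VIP, neuropeptide Y and galanin, had 4723 and 9468 counts and was 2.60-fold higher on the extracranial side (1.38, 1.33 to 1.43). Qpct, a glutaminyl cyclase that closes the first residue of neurotensin, had 466 and 879 counts (1.29, 1.13 to 1.46).

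The 10 dense core granule genes summed to 42.5 and 23.6 CPM. All 10 were tested, 0 were called (7.19% of all genes), and the median log2 ratio was -1.11. Vgf had 1022 and 359 counts, or 29.4 and 13.4 CPM (-1.13, -1.31 to -0.96), and Scg2 had 139 and 108 (0.01, -0.36 to 0.39). Chga and Chgb, the chromogranins of neuroendocrine cells, had 33 and 12 counts and 39 and 4 counts.

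Among 12 peptidases that degrade peptides outside the cell or in the cytosol, 1 was called, against 7.19% of all genes. Ace, the angiotensin-converting enzyme, which also cleaves enkephalins, had 409 counts, or 11.8 CPM, and 4029 counts, or 150.6 CPM. It was 12.8-fold higher on the extracranial side (3.68, 3.53 to 3.83), in the direction of Penk. Mme, neprilysin, which also degrades enkephalins, had 23 and 51 counts (1.53, 0.79 to 2.30). Anpep, which removes the first residue of enkephalins, went the other way with 1211 and 411 (-1.18, -1.35 to -1.02). Npepps and Lnpep had 109.4 and 74.1 CPM and 100.3 and 87.4 CPM, and the median log2 ratio of the 12 genes was -0.18.

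Most other peptide precursors were at or near the floor. Of 39 further precursor genes, 21 were at or under the floor in both libraries. Of the 14 with 10 or more counts, 4 were called, 3 on the intracranial and 1 on the extracranial side (7.19% of all genes, 5.41% and 1.78% by side), and the median log2 ratio was -0.54. Adm, the precursor of adrenomedullin, had 444 and 38 counts and was higher on the intracranial side (log2 ratio -3.17, -3.69 to -2.69). Nmu, for neuromedin U, had 44 and 0 counts, a level at least 11.3-fold higher there when set against the floor of 3 counts in the other library, and Adm2 had 23 and 0, at least 5.90-fold. These bounds leave out the error of the higher count, and the intervals of the ratios began at 8.81-fold and 4.43-fold. Tac4, which encodes the hemokinins of the tachykinin family, had 0 and 32 counts and by the same bound was at least 13.9-fold higher on the extracranial side, with an interval from 10.6-fold. Apln, the apelin precursor, had 276 and 520 counts, or 7.94 and 19.4 CPM (1.29, 1.08 to 1.51), and Nppb, the precursor of brain natriuretic peptide, had 59 and 114 counts (1.33, 0.86 to 1.81).

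**Figure D4:**
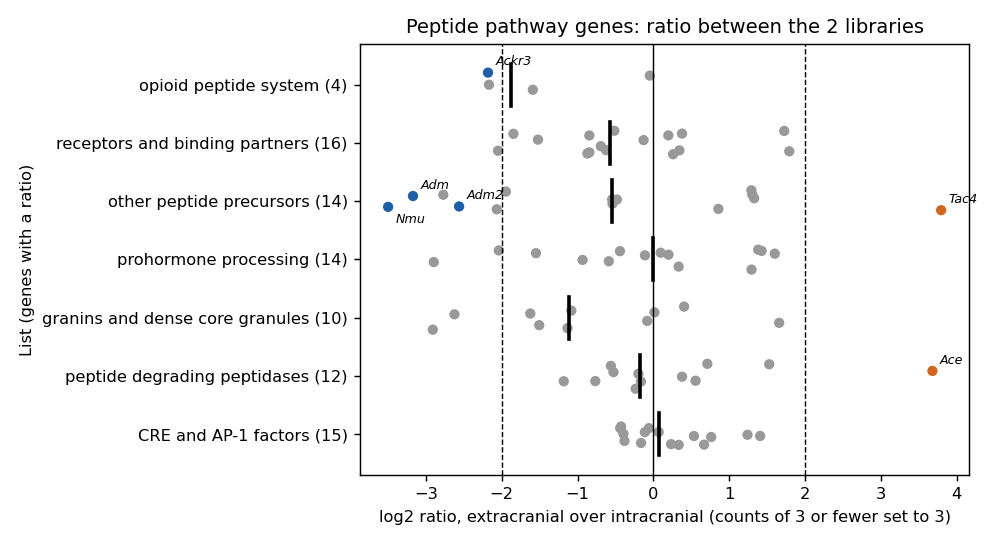
log2 ratio of the library labelled extracranial over the library labelled intracranial for genes with 10 or more counts in 7 lists of the peptide pathway, 1 point per gene, with counts of 3 or fewer set to 3; black bars are list medians, dashed lines mark 4-fold, and called genes are named. Of the 85 points in all, Ackr3, Adm, Adm2 and Nmu are called toward the intracranial side and Ace and Tac4 toward the extracranial side.

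The cells best known for these peptides were looked for by their markers. Sensory ganglion neurons, which form the trigeminal ganglion and make CGRP and substance P, were read by 15 markers, of which 9 and 7 were above the floor. They summed to 25.7 and 18.5 CPM. Ntrk3 had 479 and 163 counts and Ntrk2 188 and 63, but both genes are also read outside neurons. Prph, a neuronal intermediate filament, went the other way with 97 and 181 counts (1.28, 0.91 to 1.65). The sodium channel gene of nociceptors, Scn10a, had 5 and 0 counts, Trpv1 had 2 and 1, and Mrgprd and Prdm12 were at 0 in both. Next to these stood 2484 and 39 counts of Calca and 13 and 1 counts of Tac1. Their part in the Calca and Tac1 values was not tested.

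Autonomic neurons, the known source of Vip and Npy in nerves, were read by 10 markers, of which 8 and 3 were above the floor. They summed to 56.8 and 6.13 CPM, but Hand2, also a mesenchymal gene, made up most of this, with 1815 and 86 counts. Th, the enzyme of catecholamine synthesis, was at 0 in both libraries, where Npy had 297 and 144 counts. Chrna3, a nicotinic receptor gene, had 11 and 0 counts, and the interval of its ratio lay below 0. Dbh had 5 and 0 counts, Slc18a3 6 and 0, Chat 2 and 0, Gata3 17 and 15 and Slc18a2 99 and 62, with intervals that spanned 0. Their part in the Vip and Npy values was not tested.

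The 11 general neuron markers, 11 and 9 of them above the floor, summed to 91.2 and 142.5 CPM. They were split between the sides, with intervals wholly above 0 for 5 genes and below 0 for 5. Nefl had 396 and 1613 counts and Stmn2 713 and 1275, toward the side of Penk, whereas Snap25 had 830 and 199 and Tubb3 629 and 118. Neuroendocrine markers, 4 of 7 above the floor in each library, summed to 8.12 and 7.997 CPM, and Neurod1 was at 0 in both. Their part in the Calca, Gal and Penk values was not tested.

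The lists of other cell types differed as well. Fibroblast and mesenchyme markers, 7 of 7 above the floor in each library, summed to 3688 and 5135 CPM, with Dcn at 3745 and 21130 counts and Lum at 853 and 15309 toward the side of Penk, while Pdgfra had 9417 and 3686. Macrophage markers, 8 of 8 in each, summed to 2923 and 8691 CPM. T cell markers, 9 of 9 in each, summed to 15.4 and 42.8 CPM, B and plasma cell markers, 4 and 6 of 7, to 16.4 and 327.5 CPM (Ighm alone 13.2 and 301.5), and bone and tooth markers, 7 of 8 in each with Dspp at 0, to 21.2 and 169.7 CPM. These sums were higher in the library labelled extracranial, as Penk was, but the genes of most of these lists did not all follow. The intervals of T cell markers lay above 0 for 5 genes and spanned 0 for 4. Cd3d (73 and 70 counts), Cd3e (61 and 48) and Cd3g (224 and 195) were among the latter. For B and plasma cells these numbers were 4 and 2, with Cd79a and Jchain spanning 0. Of the fibroblast and mesenchyme intervals, 3 lay above 0 and 3 below, Col1a1 and Prrx1 among the latter. The bone and tooth sum came mostly from Dmp1 (29 and 3988 counts), while Ibsp had 186 and 15 and Bglap 60 and 4.

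On the intracranial side, as with Calca and Vip, keratinocyte markers were above the floor for 8 and 2 of 8 genes, with 5 at 0 in the library labelled extracranial. Secretory gland markers, 8 and 1 of 9, summed to 2659 and 19.8 CPM, and pituitary markers, 6 and 2 of 9, to 53.5 and 18.5 CPM. Most of the pituitary sum was Pitx1, also read outside the pituitary, with 1532 and 486 counts, while the hormone genes Gh and Prl had 244 and 0 and 35 and 0 counts. Megakaryocyte and platelet markers, 7 and 5 of 7, summed to 147 and 107.8 CPM. Mouse megakaryocytes are known to express Npy, which was also higher on this side. Schwann cell markers summed to 248 and 254.5 CPM. The part of these cell types in the levels of the 10 neuropeptide genes was not tested.

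**Figure D5:**
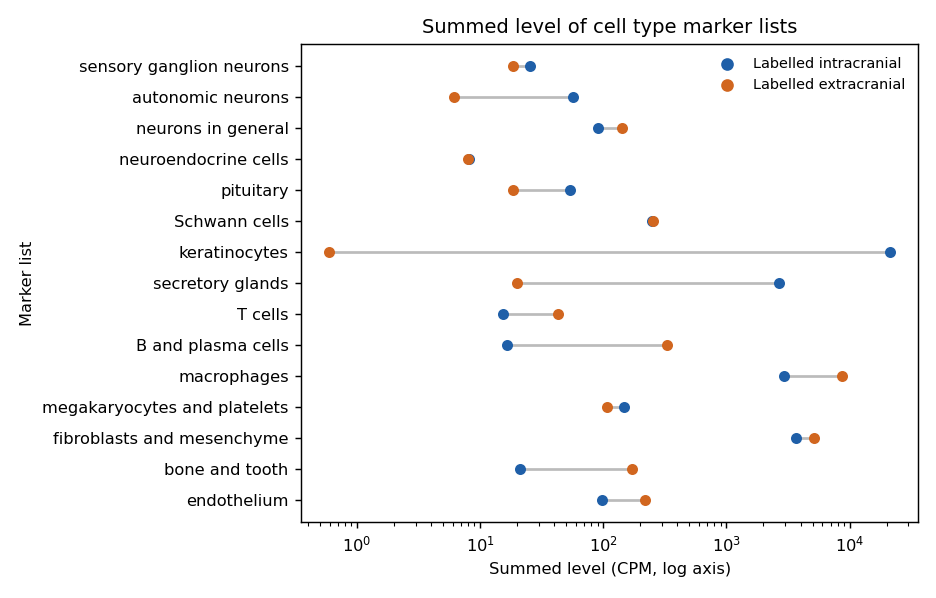
Summed level in CPM on a log axis of 15 cell type marker lists, 1 point per library joined by a line. Keratinocyte (21440 and 0.598 CPM), secretory gland and autonomic neuron lists are higher in the library labelled intracranial, and B and plasma cell, bone and tooth, macrophage and T cell lists in the library labelled extracranial.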

How the data were processed

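Bulk RNA-seq of 2 mouse tumors was analysed, grouped by the localization label, with 1 library per location. The authors deposited raw counts of reads per Ensembl gene. Per the labels and methods, RNA was poly(A)-selected, directional libraries were sequenced as single reads, and the reads were aligned with STAR 2.7.9a (submitters' processing notes, build GRCm39) and counted with featureCounts. Strand setting and multi-mapping reads were not stated, so antisense and near-identical genes are uncertain.

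Symbols, biotypes and exon lengths came from GENCODE release 21 of the mouse (GRCm38), older than the counted annotation. Symbols were found for 52083 of 55416 IDs (93.99%), and coordinates are those of the RefSeq promoter table.

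Library sizes were scaled with TMM (edgeR 4.0.16, factors 1.006 and 0.994). Shares and ratios (10 or more counts over both libraries) were given exact Clopper-Pearson 95% intervals with scipy 1.17.1. Without replicates no quasi-likelihood fit was possible, so no p-value is given. The procedure was tested on simulated counts drawn with counting error alone. Such counts cannot show how it fares with reads that are not independent or with differences between animals.

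The 10 genes, 7 pathway lists and 15 cell type lists were chosen with earlier results of these data known. The rule for named genes took the 10 genes, Smarcb1, pathway genes called or among the 2 highest by CPM in a library, in each cell type list the 2 highest and those at or under the floor in both, and the 5 genes nearest to Penk and to Calca. Of the cell type genes, those set beside a neuropeptide gene are printed. Other pathway and marker genes were named for their known role after their values were seen. Some marker genes are not reported here.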

Additional observations from a re-analysis of the deposited data

How the results depend on the processing

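No paired analysis was possible because there was only 1 library for each location, so none could be left out. The other scalings (DESeq2 1.42.0 size factors, total counts, upper quartile) shifted every log2 ratio by -0.017 to 0.038. All 36 alternative log2 ratios and all 60 alternative CPM levels of the neuropeptide genes stayed within their counting intervals, with Penk between 5.71 and 5.76. By CPM without length, 7 of 20 places in the order differed, and Vip rather than Npy was next to Calca in the library labelled intracranial. The 5 called neuropeptide genes stayed 5 under the other scalings, an interval beyond 2-fold, the ratio alone, any count and protein-coding genes only, and were 4 with a minimum of 100 counts, which Calcb missed.

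An interval beyond 2-fold raised the called genes to 3434 of all genes, 3 receptors and partners, 7 other precursors, 6 processing genes, 2 granule genes, 2 peptidases and 2 CRE and AP-1 factors, as it lets smaller ratios pass. The ratio alone gave 2542 of all genes, 2 opioid genes, 1 receptor gene, 6 other precursors, 2 processing genes and 2 granule genes, since it admits low counts. A minimum of 100 counts left 1 other precursor, as it tests fewer genes. Depth limits statements on genes near the floor of 3 counts, such as Vip and Tac1 in the library labelled extracranial.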
